A study of Homo sapiens with 6 samples.

Results

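The genes described here are 10 protein-coding genes of the endoplasmic reticulum (ER): HSPA5, DNAJB9, HSP90B1, CANX, CALR, PDIA3, PDIA4, PDIA6, P4HB and SERP1. The products of all but SERP1 fold proteins there or assist in it, and SERP1 stabilises the SEC61 protein channel. The genes were taken from the deposited gene table by symbol, and all 10 were found among 14574 genes. Every cell was HCT116, an established human colorectal carcinoma line, and every sample had been treated for 48 h with 250 nM TAK228, an mTOR kinase inhibitor renewed once at 24 h. The LARP1 knockout group (2 RNA-seq libraries) carried a knockout of LARP1, an RNA-binding protein that binds the cap and the pyrimidine-rich start of terminal oligopyrimidine (TOP) mRNAs, and the parental group (2 RNA-seq libraries) carried none. The labels do not say whether the knockout cells were 1 clone or a pool, and name no separate cultures behind the 2 libraries of a group, so the p-values measure a spread that may be technical. RNA came from pooled non-polysomal fractions of a sucrose gradient (40S to 80S), and levels in whole cells or on polysomes were not analysed here. A further 2 libraries were prepared from the same parental RNA for mapping transcription start sites (TSS).

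The lumen of the ER is where secreted and membrane proteins fold. HSPA5 (BiP) is the HSP70 chaperone of this compartment, HSP90B1 (GRP94) its HSP90, calnexin and calreticulin bind proteins that carry trimmed sugar chains, and the protein disulfide isomerases make and reshuffle disulfide bonds. When unfolded proteins build up, the sensors ATF6, IRE1 (ERN1) and PERK (EIF2AK3) start the unfolded protein response, in which ATF6 and NF-Y bind the ER stress element of chaperone promoters. That element is CCAAT and CCACG, 9 bases apart.

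The element was sought on both strands of the RefSeq promoter windows (GRCh38.p14, from 250 bases before to 50 bases from each annotated start), in which 9 of the 10 genes were matched by symbol and PDIA3 was not. It was present in 6 of the 9: HSPA5, HSP90B1, CANX, CALR, PDIA6 and SERP1. Among all 27305 genes with a window, 25 held it (0.0916%). The stretches are shown because this arrangement is what most of the genes share at the DNA level. Each is printed 5′ to 3′ on the strand on which CCAAT comes first, with CCAAT and CCACG in capitals and 8 bases on either side.
HSPA5, chr9:125241383-125241417, gene strand: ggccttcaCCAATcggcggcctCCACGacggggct
HSP90B1, chr12:103930208-103930242, gene strand: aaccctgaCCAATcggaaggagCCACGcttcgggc
HSP90B1, chr12:103930313-103930347, opposite strand: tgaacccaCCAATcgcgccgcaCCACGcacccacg
CANX, chr5:179698770-179698804, gene strand: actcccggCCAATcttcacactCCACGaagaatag
CALR, chr19:12938376-12938410, opposite strand: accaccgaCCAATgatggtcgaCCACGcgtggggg
PDIA6, chr2:10812845-10812879, gene strand: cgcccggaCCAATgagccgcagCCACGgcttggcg
SERP1, chr3:150546702-150546736, opposite strand: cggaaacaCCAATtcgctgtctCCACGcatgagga
CCAAT alone was in the windows of all 9 genes, against 39.7% of all genes, and CCACG alone was in 8 of the 9 (all but P4HB), against 42.1%. TGACGTG, a motif bound by XBP1 and ATF6, was in 0 of the 9 and in 2.40% of all genes. These are matches of letters in a window that depends on the annotated start, which lay 145 to 306 bases from that of the main GENCODE transcript for DNAJB9, PDIA4, P4HB and SERP1.

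**Figure D1:**
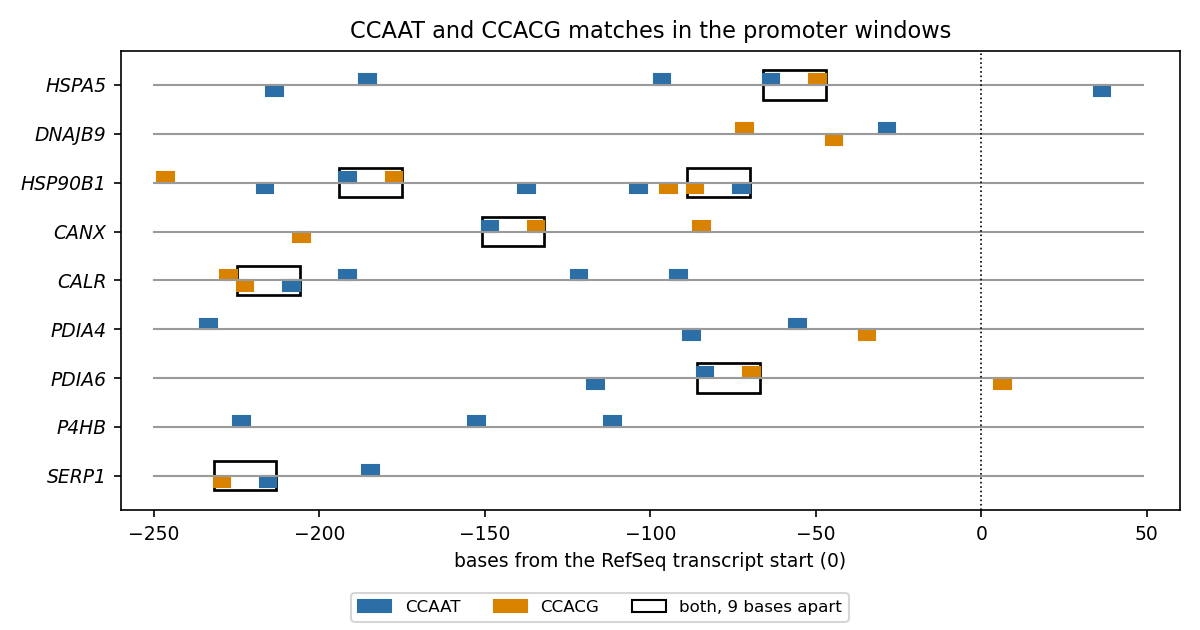
Matches to CCAAT (blue) and CCACG (orange) in the RefSeq promoter windows of 9 genes, by distance in bases from the annotated start at 0. Blocks above the line are on the gene's strand and blocks below it on the opposite strand; boxes mark both words 9 bases apart, which 6 genes have, HSP90B1 at 2 places.

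The start of the transcript is the other stretch that bears on LARP1, since a TOP mRNA opens with C and a run of pyrimidines. In the annotated RefSeq start, 0 of the 9 genes opened with C and at least 4 further pyrimidines, against 5.14% of all genes and 69.1% of 68 ribosomal protein genes. A run of that kind within 10 bases of the start on either side was found for 2 of the 9, against 38.4% of all genes and 85.3% of the ribosomal protein genes. The first 20 bases of the 5 genes called after centring are printed with any opening pyrimidines in capitals, beside the TOP mRNAs EEF2, RPL3 and RPL10. For these 3 the first listed RefSeq start was taken, while for the chaperone genes it was the one nearest the main GENCODE start. Of these 3, EEF2 alone meets the rule at the start printed.
HSPA5, chr9:125241324-125241343, minus strand: gacgccggccaagacagcac
CANX, chr5:179698929-179698948, plus strand: agggccgggcttcgtgcggt
P4HB, chr17:81860516-81860535, minus strand: gctctcgtcgcccccgctgt
SERP1, chr3:150546477-150546496, minus strand: agatcgaggcggcgggctgc
PDIA4, chr7:149028471-149028490, minus strand: gacgggctgtcggccagacc
EEF2, chr19:3985444-3985463, minus strand: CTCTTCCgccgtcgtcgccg
RPL3, chr22:39319604-39319623, minus strand: CTCTaccggcgggatttgat
RPL10, chrX:154398065-154398084, plus strand: aaatatacgtctgtcacagt
In all 9 chaperone genes the first base was a purine. Among the 48 coding transcripts that GENCODE release 29 lists for the 10 genes, 2 opened with C and at least 4 pyrimidines, 1 of CANX and 1 of PDIA6 (4.17%, against 2.62% of all coding transcripts).

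The libraries held 22039174 and 21388111 reads in the knockout group and 19038642 and 25323973 in the parental group, of which 6267820 to 7633063 per library lay outside mitochondrial genes. MT-RNR2, the mitochondrial large ribosomal RNA, took 63.1% and 62.5% of the reads in the knockout libraries, against 55.3% and 57.9% in the parental libraries, and its part in the results was not tested. LARP1 read 356 and 284 normalised read counts in the knockout libraries, against 633 and 770.3 in the parental libraries (log2 change -1.13, SE 0.18, limma adjusted p = 2.86e-09), so its mRNA was lower but present. All 8 epithelial markers listed for a colorectal line were detected (sums of 12918 and 11117 in the knockout libraries, against 14738 and 14066 in the parental libraries). EPCAM (360 and 240 in the knockout, against 576 and 544), CDH1, KRT18, KRT19, CLDN3 and CLDN7 were lower in both knockout libraries. KRT8 (3851 and 3261 in the knockout, against 3320 and 3209) was higher in both, and CLDN4 overlapped. Of the fibroblast, immune and endothelial lists, 2 of 7, 1 of 5 and 0 of 3 genes had values. The fibroblast sum (COL1A1 and COL3A1) was 69.5 and 36.2 in the knockout libraries, against 21.5 and 12.2 in the parental libraries, and COL3A1 alone was 31.3 and 23.2 in the knockout and listed at 0 in both parental libraries. The 1 immune gene, CD68, read 10.7 and 13.7 in the knockout libraries, against 191 and 173 in the parental libraries, and the part of these genes in the results was not tested. The deposited scaling gave the median gene a log2 fold change of -0.29, so each fold change is also given after centring, in which the median log2 value of a library is set to the same level in all. Fold changes are of log2(value + 1), knockout minus parental. The second knockout library lay below the first for all 10 chaperone genes on the deposited scaling, as for 82.4% of all genes tested, and for 5 of 10 after centring. The second parental library lay above the first for 6 of the 10 genes, against 62.0% of all genes. In bulk RNA, fewer cells and less RNA per cell cannot be told apart.

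On the deposited scaling, the non-polysomal fraction of LARP1 knockout cells held less CANX, SERP1, HSPA5 and P4HB mRNA than that of parental cells. These falls were 1.86-fold to 2.53-fold. HSP90B1 was lower by 1.37-fold, and 5 genes were not called. PDIA4 was the 1 gene of the 10 with higher values in both knockout libraries. With limma and an adjusted p under 0.05 over all genes, 5 of 10 fell and 0 rose, against 25.1% of all 14561 genes tested that fell and 3.77% that rose. After centring, 4 fell (CANX, SERP1, HSPA5 and P4HB) and 1 rose (PDIA4), against 16.2% and 14.6% of all genes. With edgeR on the recovered reads and the deposited size factors, 5 of 10 fell and 0 rose, against 24.9% and 3.51% of all genes. With edgeR's own scaling (TMM factors), 4 fell and 1 rose, against 2612 and 2130 of all 14561 genes. The knockout values were lower than the parental values without overlap for 6 of the 10, against 50.4% of all genes, and higher without overlap for 1, against 12.4%. The median log2 fold change of the 10 was -0.39, beside -0.29 for all genes, and -0.080 after centring, beside 0.017.

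**Figure D2:**
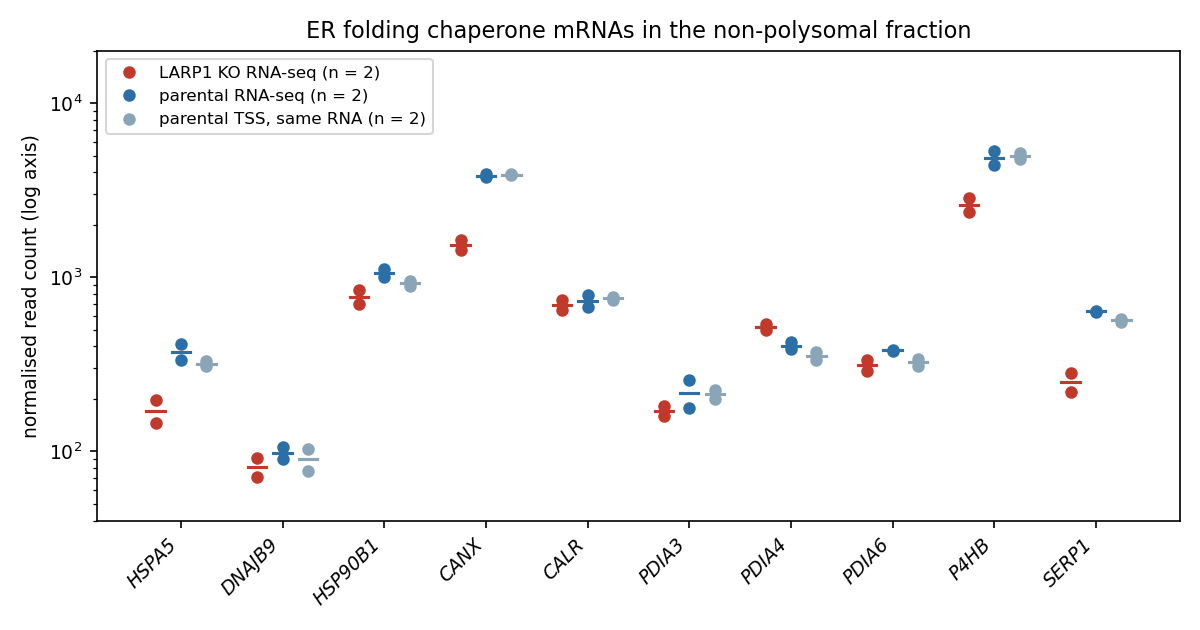
Normalised read counts (log axis) of the 10 genes in each library, with LARP1 knockout RNA-seq on the left, parental RNA-seq in the middle and the TSS libraries of the same parental RNA on the right; points are libraries and bars are means of 2. CANX, SERP1, HSPA5 and P4HB lie lower in both knockout libraries than in all 4 parental libraries, and PDIA4 lies higher.

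HSPA5, the HSP70 that also holds the stress sensors inactive until unfolded protein draws it away, read 196 and 145 in the knockout libraries, against 332 and 413 in the parental libraries. The groups did not overlap, and the TSS libraries of the parental RNA gave 310.4 and 328. Its mean was 171 ± 36.0 in the knockout and 373 ± 57.0 in the parental libraries (SD, n = 2 each), a 2.18-fold fall (log2 fold change -1.13, SE 0.20, limma adjusted p = 1.64e-07). After centring the log2 fold change was -0.82 (SE 0.13, limma adjusted p = 6.24e-05). The gene (ENSG00000044574.7) lies on chromosome 9, 125234853 to 125241330, in GRCh38.

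HSP90B1, which folds a narrower set of clients such as integrins and Toll-like receptors, read 843 and 703 in the knockout libraries, against 1004 and 1118 in the parental libraries. The groups did not overlap, but the fall was small (log2 fold change -0.46, SE 0.16, limma adjusted p = 0.0195). It was -0.15 after centring (limma adjusted p = 0.223) and was not called in 10 of 17 alternatives, among them the fits without knockout replicate 2 (0.182), without parental replicate 1 (0.174) and without parental replicate 2 (0.434). Within each library, HSPA5 stood at 0.233 and 0.207 of HSP90B1 in the knockout, against 0.331 and 0.370 in the parental libraries. That ratio does not depend on the scaling. It was picked, like the other ratios below, after the values were seen.

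DNAJB9 (ERdj4), a J-domain partner that stimulates the ATPase of HSPA5, was the least abundant of the 10, with 67 to 120 reads per RNA-seq library. It read 91.7 and 71.0 in the knockout libraries, against 90.2 and 106 in the parental libraries. The groups overlapped. The log2 fold change was -0.27 (SE 0.25, limma adjusted p = 0.441) and 0.037 after centring, so its sign turned with the scaling. Its 95% interval of -0.77 to 0.22 on the deposited scaling includes falls larger than that of HSP90B1. DNAJB9 shares 183 exonic bases with THAP5 and 99 with PNPLA8, both on the opposite strand, and the use of strand in counting is not given in the sources used here.

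The lectin chaperones differed from each other. CANX (calnexin), the membrane-bound lectin that holds newly made glycoproteins, read 1635 and 1432 in the knockout libraries, against 3758 and 3896 in the parental libraries. The TSS libraries gave 3841 and 3930.2, next to the parental RNA-seq values. Its mean was 1533 ± 143.5 in the knockout and 3827 ± 97.6 in the parental libraries (SD, n = 2 each), a 2.50-fold fall (log2 fold change -1.32, SE 0.15, limma adjusted p = 2.08e-17; -1.01 after centring, limma adjusted p = 1.00e-08). A lower log2 fold change than that of CANX was found for 9.48% of all genes tested. CANX (ENSG00000127022.14) lies on chromosome 5, 179678628 to 179730925.

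CALR (calreticulin), the soluble lumenal relative of calnexin and a calcium store, read 737 and 645 in the knockout libraries, against 787 and 670.3 in the parental libraries. The groups overlapped, with a log2 fold change of -0.076 (SE 0.17, limma adjusted p = 0.776) that turned to 0.24 after centring (limma adjusted p = 0.113). The 95% interval on the deposited scaling ran from -0.40 to 0.25. CANX stood at 2.22 and 2.22 times CALR within the knockout libraries, against 4.77 and 5.81 in parental RNA-seq and 4.98 and 5.32 in the TSS libraries.

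Of the disulfide isomerases, P4HB fell, PDIA3 and PDIA6 were not called, and PDIA4 was the gene with higher values. P4HB (PDI), the founding isomerase and also the beta subunit of collagen prolyl hydroxylase, read 2846 and 2354 in the knockout libraries, against 5301 and 4385 in the parental libraries. The TSS libraries gave 5158 and 4785. Its 1.86-fold fall (log2 fold change -0.90, SE 0.15, limma adjusted p = 1.40e-08) came to -0.59 after centring (limma adjusted p = 2.18e-04). The call was lost when the spread was not modelled as a trend over level (limma adjusted p = 0.0518, the highest over its alternatives, the lowest being 2.44e-10). P4HB (ENSG00000185624.14) lies on chromosome 17, 81843159 to 81860694.

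PDIA4 (ERp72), an isomerase that works with HSPA5 and HSP90B1 on bound clients, read 541 and 496 in the knockout libraries, against 424 and 385 in the parental libraries. Both knockout values lay above both parental values and above both TSS values (333 and 374). On the deposited scaling the log2 fold change was 0.36 (SE 0.18, limma adjusted p = 0.118), and PDIA4 was not called. After centring it rose, with a log2 fold change of 0.67 (SE 0.11, limma adjusted p = 1.18e-04), and it also passed with the TSS libraries as the parental libraries (0.55, limma adjusted p = 0.00482). PDIA4 stood at 2.75 and 3.41 times HSPA5 within the knockout libraries, against 1.28 and 0.932 in parental RNA-seq and 1.07 and 1.14 in the TSS libraries. P4HB stood at 5.26 and 4.74 times PDIA4 within the knockout libraries, against 12.5 and 11.4 in parental RNA-seq. PDIA4 (ENSG00000155660.10) lies on chromosome 7, 149003062 to 149028641.

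PDIA6, an isomerase that also limits signalling by IRE1, read 334 and 289.5 in the knockout libraries, against 384 and 377 in the parental libraries. The RNA-seq groups did not overlap, but of the TSS values of the parental RNA, 308 lay between the knockout values and 340.0 just above them. Its log2 fold change was -0.29 (SE 0.19, limma adjusted p = 0.248), and 0.022 after centring. PDIA3 (ERp57), which works beside calnexin and calreticulin, read 183 and 159.8 in the knockout libraries, against 178 and 257 in the parental libraries. The parental libraries differed from each other by more than the groups did, and the log2 fold change was -0.32 (SE 0.21, limma adjusted p = 0.252), or -0.011 after centring. PDIA3 shares 627 exonic bases with ELL3 on the opposite strand, and its pseudogene PDIA3P1 read 9.93 and 13.0 in the knockout libraries, against 14.8 and 15.8 in the parental libraries. The values of PDIA3 are therefore uncertain. HSP90B1 shares 121 exonic bases with C12orf73 and 105 with TTC41P, both on the opposite strand. PDIA6 (1033 bases, with ATP6V1C2), P4HB (529), CALR (270) and CANX (150) overlap opposite-strand genes that had no values.

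SERP1 (RAMP4), a small membrane protein bound to the SEC61 channel that protects new membrane proteins under ER stress, had the lowest log2 fold change of the 10, next to that of CANX. It read 283 and 218 in the knockout libraries, against 634 and 637 in the parental libraries. The groups did not overlap, and the TSS libraries gave 577 and 556. The mean was 251 ± 45.9 in the knockout and 636 ± 2.40 in the parental libraries (SD, n = 2 each), a 2.53-fold fall (log2 fold change -1.35, SE 0.18, limma adjusted p = 2.63e-12; -1.04 after centring, limma adjusted p = 3.86e-07). SERP1 (ENSG00000120742.10) lies on chromosome 3, 150541994 to 150603228, and shares 153 exonic bases with EIF2A, a non-canonical initiation factor gene on the opposite strand. EIF2A was also lower in the knockout fraction (log2 fold change -1.19, limma adjusted p = 2.71e-14), and its share in the SERP1 value was not tested.

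**Figure D3:**
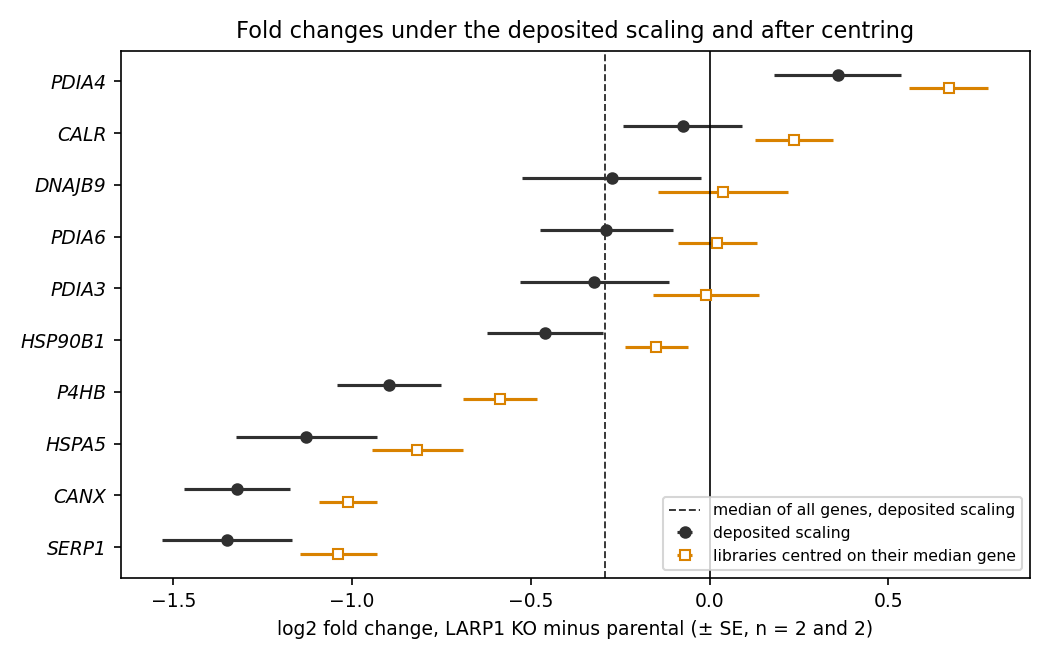
Log2 fold change (LARP1 knockout minus parental, with SE, 2 libraries each) of the 10 genes on the deposited scaling (filled circles) and after centring each library on its median gene (open squares). The dashed line is the median of all genes on the deposited scaling (-0.29). CANX, SERP1, HSPA5 and P4HB lie between -1.35 and -0.59 on both scales, and PDIA4 lies right of 0 on both.

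The authors' deposited table sets parental over knockout, so its log2 values are positive for genes lower in the knockout. The parental side of that comparison was unlike the 2 RNA-seq libraries used above: over 14485 genes, the log2 values of the authors' deposited table differed by a median of 0.0029 from the ratio that takes all 4 parental libraries, TSS included, and by 0.095 from the ratio of RNA-seq alone. In the authors' deposited table, 5 of the 10 had an adjusted p under 0.05 and were lower in the knockout, against 24.3% of all genes, and 1 was higher, against 4.32%. That 1 gene was PDIA4, at -0.46 (SE 0.14, adjusted p = 0.00545) in the authors' deposited table.

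Per length, P4HB was the most abundant of the 10 in each group and DNAJB9 the least. Levels per kilobase of the main GENCODE transcript were 999 ± 134 for P4HB in the knockout and 1861 ± 249 in the parental libraries (SD, n = 2 each). CALR (363 ± 34.4) and CANX (359.9 ± 33.7) stood side by side in the knockout libraries, within their spread, whereas in the parental libraries CANX (898 ± 22.9) stood above CALR (383 ± 43.5) and HSP90B1 (371 ± 28.1), which overlapped. PDIA4 had 179 ± 10.8 per kilobase in the knockout and 139 ± 9.47 in the parental libraries, and its place moved to 5 of 10 in the knockout, against 7 in the parental libraries. SERP1 had 79.1 ± 14.5 in the knockout and 200.5 ± 0.758 in the parental libraries, and stood at place 7 in the knockout, against 5. HSPA5 (43.7 ± 9.21) and PDIA3 (45.9 ± 4.33) could not be ordered in the knockout libraries.

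The values of the 10 genes summed to 7689.5 and 6515 in the knockout libraries, against 12893 and 12245 in the parental libraries. Their share of the reads outside mitochondrial genes was 0.158% and 0.152% in the knockout libraries, against 0.141% and 0.132% in the parental libraries. The TSS libraries of the parental RNA gave 0.154% and 0.138%, so the shares overlapped between the genotypes. A share is not a level, since its denominator differed between the groups as well. Before scaling, P4HB had 3726 and 3448 reads in the knockout libraries, against 3938 and 3598 in the parental libraries. HSPA5 had 257 and 213, against 247 and 339. The reads of both genes overlapped between the groups, so their falls rest on the scaling of the libraries. CANX (2140 and 2097, against 2792 and 3197) and SERP1 (371 and 320, against 471 and 523) did not overlap. Within the sum of values, CANX made up 21.3% and 22.0% in the knockout libraries, against 29.2% and 31.8% in the parental libraries. CALR made up 9.59% and 9.89% in the knockout, against 6.11% and 5.47%, and PDIA4 7.03% and 7.62%, against 3.29% and 3.15%.

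Other genes of ER folding and quality control were read from 5 lists by role. Of 98 tested, 24 fell and 3 rose, and after centring 10 fell and 11 rose, so the balance of directions depended on the scaling. These shares (24 of 98 lower, beside 25.1% of all genes, and 10 and 11 of 98 after centring, beside 16.2% and 14.6%) were near or below those of all genes. These counts were 7 to 14 lower and 0 to 1 higher when 1 library was left out. The median log2 fold change of the 98 was -0.30, close to that of all genes, and 0.0099 after centring. Among the co-chaperones of HSPA5 and HSP90B1, 3 of 14 fell and 0 rose, beside 25.1% and 3.77% of all genes, and 3 fell and 1 rose after centring, beside 16.2% and 14.6%. DNAJC3, an HSPA5 co-chaperone that also inhibits PERK, had 86.9 ± 1.28 in the knockout and 225 ± 11.4 in the parental libraries (log2 change -1.36, SE 0.22, limma adjusted p = 2.08e-08). DNAJC1, a J-domain protein of the ER membrane, had 46.0 ± 6.20 in the knockout and 136 ± 15.0 in the parental libraries (log2 change -1.55, SE 0.26, limma adjusted p = 3.95e-08). Both stayed lower after centring, at -1.05 and -1.23.

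Among disulfide and isomerase enzymes, 7 of 28 fell and 1 rose, the share of falls being that of all genes (25.1%). After centring 2 fell and 4 rose, beside 16.2% and 14.6% of all genes. ERP29, a PDI-fold protein without the active-site cysteine pair, had 281 ± 28.9 in the knockout and 667 ± 90.3 in the parental libraries (log2 change -1.24, limma adjusted p = 8.50e-11). PPIB (cyclophilin B), a prolyl isomerase that joins collagen folding complexes, had 462 ± 21.4 in the knockout and 1035 ± 62.7 in the parental libraries (log2 change -1.16, limma adjusted p = 8.76e-11). The member that rose, FKBP7, a prolyl isomerase that binds HSPA5 in mouse, had 31.2 ± 4.15 in the knockout and 15.3 ± 0.733 in the parental libraries (limma adjusted p = 0.0490). After centring FKBP7 rose by 1.29 (limma adjusted p = 0.00914). It was not called with DESeq2 (adjusted p = 0.104), and lost its call whichever of the 4 libraries was left out (log2 fold changes of 0.84 to 1.11).

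In the glycoprotein folding cycle that feeds calnexin and calreticulin, 5 of 11 fell and 0 rose, beside 25.1% and 3.77% of all genes. After centring 2 fell (PRKCSH and UGGT2) and 0 rose, beside 16.2% and 14.6% of all genes. PRKCSH, the beta subunit of the glucosidase that trims sugar chains for the lectins, fell most of all 98 genes, with 196 ± 25.2 in the knockout and 1064 ± 0.555 in the parental libraries (log2 change -2.44, SE 0.18, limma adjusted p = 5.79e-41; -2.13 after centring). UGGT2, one of the enzymes that put a glucose back on unfolded glycoproteins, had 54.1 ± 8.88 in the knockout and 128 ± 9.99 in the parental libraries (log2 change -1.24, limma adjusted p = 1.40e-05, lost without knockout replicate 2 at limma adjusted p = 0.0527).

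Among ER-associated degradation genes, 4 of 24 fell and 1 rose, with falls below the 25.1% of all genes. After centring 1 fell and 2 rose, beside 16.2% and 14.6% of all genes. RNF139, a membrane ubiquitin ligase, had 207 ± 24.0 in the knockout and 343 ± 37.4 in the parental libraries (log2 change -0.73, limma adjusted p = 0.00136), and OS9, a lectin that delivers glycoproteins to the degradation complex, had 215 ± 34.4 in the knockout and 329 ± 18.6 in the parental libraries (log2 change -0.62, limma adjusted p = 0.00782). OS9 was -0.31 after centring and no longer called, and it lost its call without knockout replicate 2 and without either parental replicate, at limma adjusted p = 0.132 to 0.203. RNF139 lost its call without knockout replicate 2 and without parental replicate 2 (limma adjusted p = 0.0999 and 0.190). RNF5, a ubiquitin ligase of the ER membrane, was the member that rose (294 ± 38.6 in the knockout and 196 ± 18.8 in the parental libraries, limma adjusted p = 0.0165). After centring RNF5 rose by 0.89 (limma adjusted p = 1.37e-05). Its call was lost with no intensity trend (limma adjusted p = 0.135) and whichever library was left out (log2 fold changes of 0.44 to 0.71).

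Of the sensors and factors of the unfolded protein response, 5 of 21 fell and 1 rose, beside 25.1% and 3.77% of all genes. After centring 2 fell and 4 rose (ATF4, DDIT3, PPP1R15A and CHAC1), beside 16.2% and 14.6% of all genes. TRIB3 and ATF3 of this list were not called on either scaling (log2 fold changes of 0.15 and -0.21 after centring). CEBPB, a transcription factor that dimerises with CHOP, had 91.4 ± 5.72 in the knockout and 221 ± 4.37 in the parental libraries (log2 change -1.27, limma adjusted p = 2.00e-07), and TMBIM6, a membrane protein that inhibits IRE1, had 984 ± 151 in the knockout and 1721 ± 128 in the parental libraries (log2 change -0.81, limma adjusted p = 2.39e-06). TMBIM6 lost its call without parental replicate 2 (limma adjusted p = 0.0501). CHAC1, a glutathione-degrading target of ATF4, was the member that rose, on 29 and 16 reads in the knockout and 3 and 6 in the parental libraries (16.5 ± 7.94 in the knockout and 5.68 ± 2.32 in the parental libraries, limma adjusted p = 0.0494). It kept its call without parental replicate 2 alone among the 4 left-out libraries (limma adjusted p = 0.0172, against 0.151 to 0.387). DDIT3, which encodes CHOP, had 168 ± 22.5 in the knockout and 116 ± 19.9 in the parental libraries. DDIT3 was not called on the deposited scaling (limma adjusted p = 0.0583) and rose after centring, by 0.84 (limma adjusted p = 2.98e-04). PPP1R15A, the phosphatase subunit that reverses PERK signalling, rose by 0.68 after centring (limma adjusted p = 1.07e-04), and ATF4, the transcription factor translated when PERK is active, by 0.22 (limma adjusted p = 0.0418). ATF4 was at -0.087 on the deposited scaling and was not called with edgeR and TMM factors or with DESeq2 (adjusted p = 0.0974 and 0.0604). The stress sensors were not called, with log2 fold changes of -0.32 for ATF6, -0.51 for ERN1 and -0.39 for EIF2AK3 (limma adjusted p = 0.216, 0.117 and 0.311). XBP1, whose window also holds the spaced element, had 456 ± 69.8 in the knockout and 483 ± 33.9 in the parental libraries (limma adjusted p = 0.746).

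**Figure D4:**
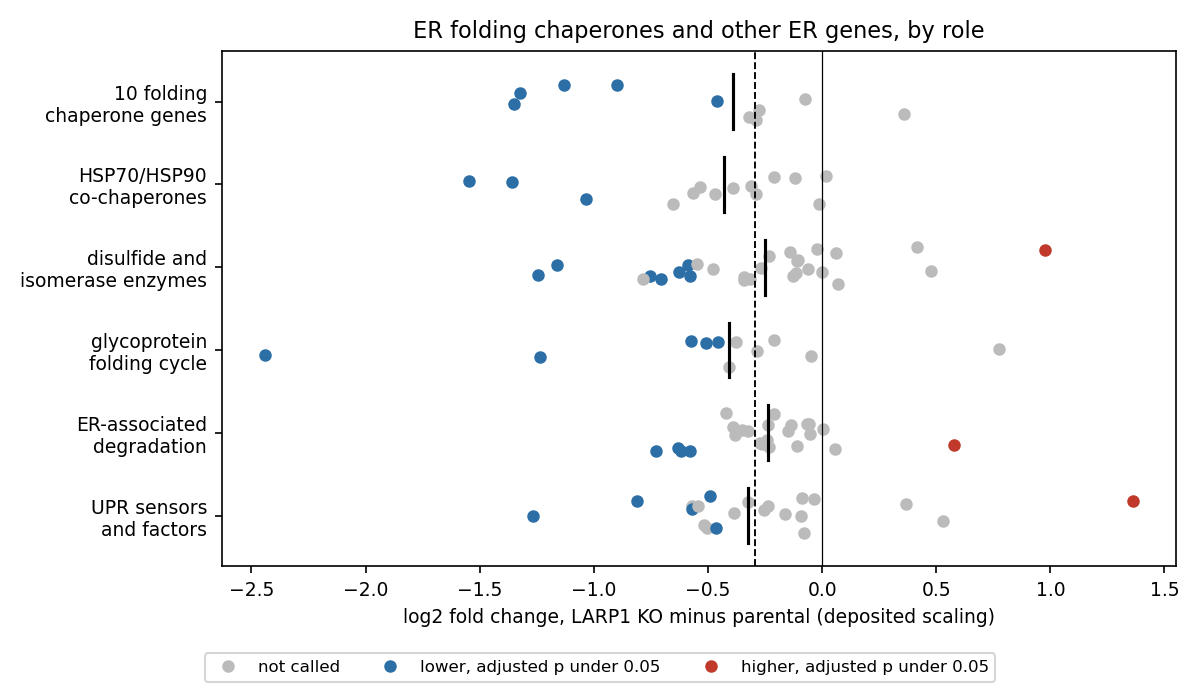
Log2 fold change (LARP1 knockout minus parental, deposited scaling) of the 10 genes and of 98 other ER genes in 5 lists by role; each point is a gene, coloured by its limma call, short vertical lines are list medians and the dashed line is the median of all genes (-0.29). List medians lie between -0.43 and -0.24, and PRKCSH is the point at the far left.

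The 3 listed genes whose profile over the 6 libraries was nearest to the median profile of the 10 chaperone genes were MLEC, MBTPS1 and MAN1B1, with root mean square distances of 0.062, 0.067 and 0.068 log2 units. MLEC (malectin), a lectin for diglucosylated chains, had 983 ± 145 in the knockout and 1342 ± 68.6 in the parental libraries (limma adjusted p = 0.0172), and MBTPS1, the protease that cleaves ATF6, had 537 ± 47.2 in the knockout and 744 ± 97.0 in the parental libraries (limma adjusted p = 0.0244). MAN1B1, an ER mannosidase, had 172 ± 18.2 in the knockout and 256 ± 8.24 in the parental libraries (limma adjusted p = 0.0208). None of the 3 was called after centring, nor without knockout replicate 2 or either parental replicate, and MBTPS1 was not called without knockout replicate 1 either (the highest adjusted p over the alternatives, DESeq2 and edgeR included, was 0.413 for MLEC, 0.534 for MBTPS1 and 0.429 for MAN1B1).

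The spaced element occurred both in genes that fell and in genes that were not called. Of the 6 chaperone genes with it, 4 fell (HSPA5, HSP90B1, CANX and SERP1) and 2 were not called (CALR and PDIA6), while P4HB fell without a match in its window. Over all 25 genes that hold it, 16 were tested, and these include the 6 chaperone genes. On the deposited scaling 7 of the 16 fell and 0 rose, beside 25.1% and 3.77% of all genes. After centring 5 fell and 1 rose, beside 16.2% and 14.6%. The 6 chaperone genes gave 4 of the 7 falls, and 3 of the 5 after centring. Outside them, 3 of 7 genes of no ER list fell (EIF2A among them), and 0 of 3 genes of the other ER lists. The median log2 fold change of the 16 was -0.47, beside -0.29 for all genes, with the 6 chaperone genes within it at -0.79. These 25 include XBP1, CRELD2 and ERO1B from the other ER lists, none of which was called. The element of SERP1 lies on the opposite strand, the coding strand of its head-to-head neighbour EIF2A, which is also among the 25.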

How the data were processed

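RNA-seq of the non-polysomal fraction was compared between 2 LARP1 knockout and 2 parental libraries. The authors deposited a signal per gene and library, the read count over that library's size factor, called normalised read count here. The deposited table also holds the authors' comparison, per the file headers: a log2 fold change with its standard error, a linear fold (ratio), a test score, p-values and −log10 of the adjusted p. The submitters' processing notes name STAR 2.6, RSEM, SAMtools, DESeq2 and GRCh38. Which annotation release and strand setting were used is not given in the sources used here. Divided by what 1 read is worth in its library, 100% of the values were whole within 0.001 reads, so depth is the sum of recovered reads.

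The comparison was fitted with limma-trend (version 3.58.1 under R 4.3.3) to log2(value + 1) of the 14561 genes that reached 1 in 2 or more of the 4 libraries. The test was two-sided, with Benjamini-Hochberg adjustment over all genes and calls under 0.05. Fold changes are on that log2(value + 1) scale, which understates the change of low genes. On the deposited scaling, the prior degrees of freedom came out infinite. Each gene was therefore given the spread of genes at its level there, and 95% intervals are normal. After centring the p-values followed a finite number, so SE and p of the scalings rest on different models of spread. With 2 libraries a group, an exact permutation p cannot go below 0.333. On the recovered reads, edgeR 4.0.16 with the deposited size factors called 3628 genes lower and 511 higher. On the deposited scaling, every pair of libraries differed by more than sampling noise (median chi-square at least 1.94 times its expectation). That measure includes any shift in scaling between the libraries of a pair as well as differences of single genes.

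The 10 genes and all lists were chosen with earlier results of these data known. Named were the 10 genes, LARP1, per list the 2 called genes with the smallest adjusted p, and the 3 nearest profiles. FKBP7, RNF5, CHAC1, DDIT3, PPP1R15A, ATF4, TRIB3, ATF3, ATF6, ERN1, EIF2AK3, XBP1, EIF2A, CRELD2, ERO1B, COL1A1, COL3A1, CD68 and the epithelial markers were named after their values were seen. Sequences are RefSeq's (GRCh38.p14). Coordinates of genes and transcript lengths come from GENCODE release 29 (GRCh38), 1-based, with the same versioned identifier for all 10 genes.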

Additional observations from a re-analysis of the deposited data

How the results depend on the processing

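CANX, SERP1 and HSPA5 kept their fall and their call in all 17 alternatives, and P4HB in 16. None of these alternatives scaled the libraries by depth alone, and before scaling the reads of HSPA5 and P4HB overlapped between the groups. With 2 libraries a group and a spread taken from the trend over level, small falls such as that of HSP90B1 depend on the choice of fit, and reads behind the lowest gene, DNAJB9, limit its precision. The cause of the changes below was not tested. Of the 10 genes, 3 fell with no intensity trend, and 4 to 5 when 1 library was left out. PDIA4 made 1 higher gene after centring, with TMM factors, with edgeR and TMM factors, with DESeq2, with TSS in place of parental RNA-seq and with each parental RNA's RNA-seq and TSS values averaged, against 0 otherwise. The median log2 fold change of the 10 was -0.080 after centring, -0.095 with TMM factors, -0.11 with edgeR and TMM factors, -0.099 with DESeq2, -0.28 with the TSS libraries, and -0.56 to -0.28 with 1 library left out.

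Signs turned, without a call, for DNAJB9 (0.037 after centring, 0.019 with TMM factors, 0.017 with edgeR and TMM factors, 0.025 with DESeq2), for CALR (0.24, 0.22, 0.22 and 0.22 in the same settings, 0.021 without knockout replicate 2 and 0.040 without parental replicate 1, in a range of -0.19 to 0.040 with 1 library left out) and for PDIA6 (0.022, 0.0071, 0.0081 and 0.014 in the same settings).

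Over all genes, the number lower was 2365 after centring, 1962 with no trend, 1557 with DESeq2 and 1233 to 2416 with 1 library left out. The number higher was 2119 after centring, 1976 with TMM factors, 282 with no trend, 2130 with edgeR and TMM factors, 983 with DESeq2, 925 with the TSS libraries, and 116 to 389 with 1 library left out. Of the other ER genes, the number lower was 10 after centring, 10 with TMM factors, 8 with no trend, 11 with edgeR and TMM factors, 8 with DESeq2, and 7 to 14 with 1 library left out. The number higher was 11, 9, 1 and 11 in the first 4 of these settings, 1 with a pseudocount of 0.1, 1 with edgeR and deposited size factors, 5 with the TSS libraries, and 0 to 1 with 1 library left out.

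The replicate numbers are shared by both groups, but nothing says that they pair the samples: deviations of same-numbered libraries had a correlation of -0.02 over genes. With the number as a block, 4 of the 10 genes fell (HSP90B1 at limma adjusted p = 0.0870) and 0 rose. Of the 98 other ER genes, 11 fell and 0 rose. Over all 14561 genes tested, 2771 fell and 388 rose in this fit. Among the 24 genes named by the rule, 4 calls were lost (HSP90B1, MLEC, MBTPS1 and MAN1B1).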
